A study of Mus musculus with 10 samples.

Results

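The ribosome of the cytosol is built from a small and a large subunit, each a core of ribosomal RNA dressed with ribosomal proteins. The small subunit (RPS proteins) reads the mRNA and the large subunit (RPL proteins) joins amino acids. Most of the proteins are used in equal numbers, so that their mRNAs are usually kept in step. Many of these mRNAs begin with a run of pyrimidines, the terminal oligopyrimidine (TOP) tract, through which their translation follows the mTOR kinase. Skeletal muscle also holds Rpl3l, a form of Rpl3 made mainly in striated muscle.

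The genes described here are the protein-coding mouse genes with an Rps or Rpl symbol and number, with Rplp0, Rplp1, Rplp2 and Rpsa added and the ubiquitin fusion gene Rps27a and the S6 kinase genes left out. The rule gave 83 of the 39179 genes in the count files, of which 31 belong to the small and 52 to the large subunit by symbol. It used no measured value. After a filter on low counts 81 of the 83 were tested. The paralogs Rpl10l and Rpl39l, which have few or no reads in this tissue, did not pass.

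RNA was measured by sequencing in tibialis anterior, a fast muscle of the lower leg, of 4 Control and 6 LLC mice, 1 library per mouse. LLC stands for Lewis Lung Carcinoma, a mouse lung cancer cell line. LLC mice were injected under the skin of both flanks with these cells in PBS and carried tumors, and Control mice were injected with PBS alone. The comparison asks how the muscle transcriptome differs in cachexia, the wasting of muscle and body weight in cancer. Per the labels the mice were C57BL/6J and 10 weeks old at injection, with tumor development of 23 days in LLC and 0 days in Control mice. In contrast, the series' design text names C57BL/10 males, 8 weeks old and studied after 22 days. All tumors came from 1 cell line, and by the study's methods the LLC mice taken for sequencing were those that survived the whole period. Libraries held 16693209 to 21303084 counts, so that 3 counts, taken as the detection limit, correspond to 0.141 to 0.180 CPM, the count relative to the library total. All 6 skeletal muscle markers were detected in every sample.

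The LLC libraries differed among themselves more than the Control libraries did. Compared over genes by chi-square, pairs of Control libraries gave 3.90 to 8.68 per degree of freedom and pairs of LLC libraries 8.38 to 195, and the highest values all involved LLC 1. The summed level of the muscle markers was 98954 to 105081 CPM in Control, 63010 CPM in LLC 1 and 95441 to 111412 CPM in the other LLC libraries. The share of counts from mitochondrially encoded genes was 28.4% to 30.7% in Control, 22.0% in LLC 1, 22.9% in LLC 5 and 25.8% to 27.9% in the others. For this reason results are also given without LLC 1 and LLC 5, the libraries with the highest levels of the ribosomal protein genes, a choice made after the values were seen.

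Start sequences are shown first because they carry the feature that names the TOP class. RefSeq starts (GRCm38.p6) were found for 64 of the 83 genes. Each line below gives 10 bases before and 20 bases from the annotated start, 5′ to 3′ on the gene's strand, with capitals for a run of at least 6 pyrimidines that opens with C within 10 bases of the start. The first 5 lines are examples with such a run, chosen among the genes whose values are given below, and the last 4 have none at the start nearest the 5′ end of the gene.
Rps27 (chr3:90213629-90213658, minus strand): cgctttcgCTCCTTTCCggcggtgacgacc
Rps18 (chr17:33955646-33955675, minus strand): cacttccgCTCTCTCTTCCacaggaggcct
Rps6 (chr4:86857348-86857377, minus strand): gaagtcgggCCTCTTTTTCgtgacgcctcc
Rpl13a (chr7:45128726-45128755, minus strand): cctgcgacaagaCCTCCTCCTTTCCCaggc
Rplp2 (chr7:141447641-141447670, plus strand): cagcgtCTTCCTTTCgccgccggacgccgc
Rpl3l (chr17:24727816-24727845, plus strand): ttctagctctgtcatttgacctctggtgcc
Rpl7l1 (chr17:46782637-46782666, minus strand): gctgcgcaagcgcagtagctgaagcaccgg
Rpl22 (chr4:152325716-152325745, plus strand): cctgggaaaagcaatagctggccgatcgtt
Rplp0 (chr5:115559457-115559486, plus strand): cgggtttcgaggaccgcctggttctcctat

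Such a run was present at 35 of 76 annotated starts of the ribosomal protein genes (46.1%) and at 19.2% of all 32851 starts in the table. It was found in 14 of 24 small subunit genes and in 20 of 40 large subunit genes. Within 250 bases before to 50 bases after the start, on either strand, the letters CCGGAAG, the core bound by ETS factors, occurred at 35.5% of the starts against 8.86% of all starts. The YY1 core AAGATGG occurred at 15.8% against 6.34%, and TATAAA at 9.21% against 13.6%. These motifs were chosen after the sequences were seen. A match is a description of the letters in this window only, and the annotated start can lie some bases from the start used in muscle.

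Transcripts of the ribosomal proteins tended to be a little higher in LLC muscle, in both subunits. Of the 81 genes tested, 79 had a higher fitted level in LLC, against 50.3% of all 12690 genes tested, and the median log2 fold change was 0.31 (1.24-fold) against 0.00 over all genes. The median was 0.32 over the 31 small subunit genes, all 31 higher, and 0.31 over the 50 large subunit genes, 48 of them higher. With the paralogs left out it was 0.31 in both. The difference between the subunit medians, large minus small, was -0.005 on the log2 scale, and it ran from -0.030 to -0.0016 when 1 library was left out.

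No gene of the 81 passed the threshold of edgeR's quasi-likelihood test, at least a 1.5-fold change with p adjusted by Benjamini-Hochberg at 0.05 or less, which 5.63% of all tested genes passed. None reached an adjusted p of 0.05 or less without the fold limit (6.99% of all genes), and the smallest was 0.0669, for Rpl22. By p before adjustment, 43 of the 81 were at 0.05 or less and higher in LLC, 19 of 31 in the small and 24 of 50 in the large subunit, against 12.7% of all genes. This count was 7 without Control 4, 17 without Control 1, Control 2 or LLC 5, and 66 without LLC 4. Over all genes the count was 1327 of 12608 without LLC 5 and 1898 of 12617 without LLC 4. For the fits without a Control library the count over all genes is not given here. DESeq2's Wald test placed 1 gene past the threshold, Rps27 (8.31% of all genes), and gave 5 an adjusted p of 0.05 or less (11.9% of all genes), namely Rps18, Rps27, Rpl22, Rpl5 and Rps19. With limma voom and sample weights 8 genes had an adjusted p of 0.05 or less (18% of all genes) and none was past the threshold. The 81 genes moved together across samples, so these counts are not counts of independent events.

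**Figure D1:**
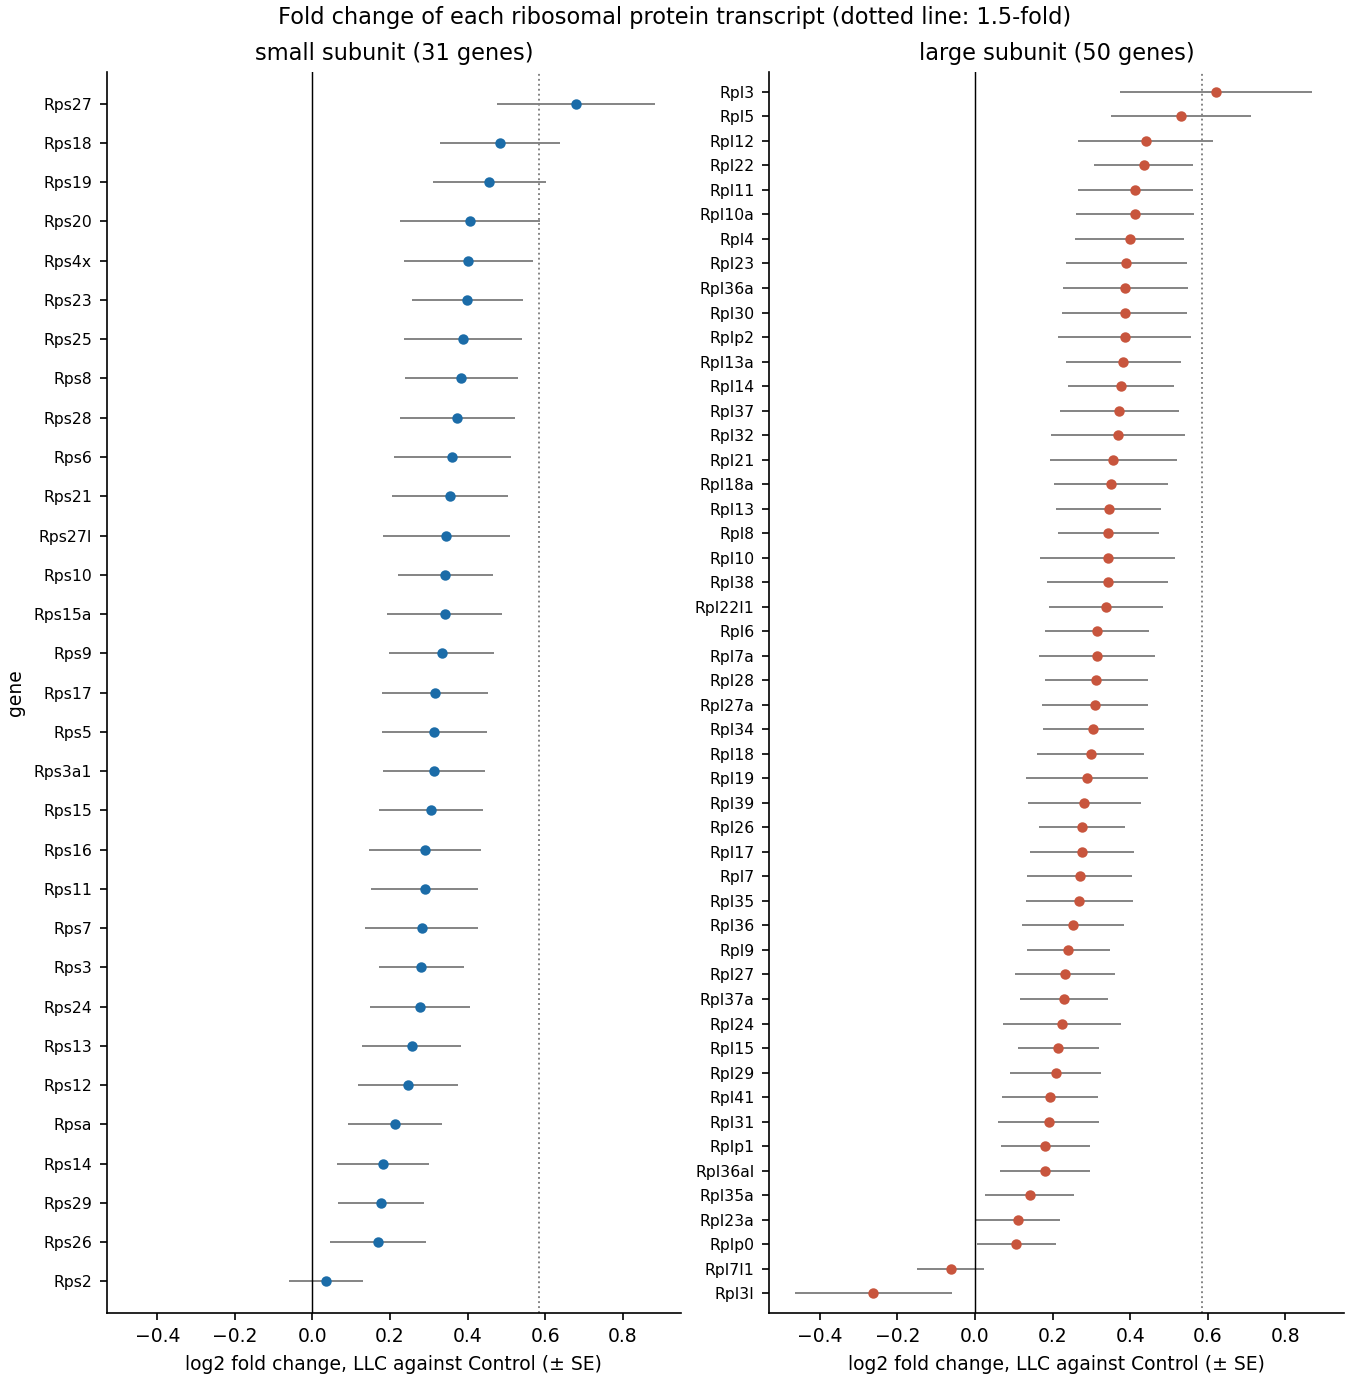
Log2 fold change of LLC against Control with its standard error for each tested ribosomal protein gene, on the x axis, with genes of the small (left) and large subunit (right) ordered on the y axis. Points lie right of 0 for all 31 small subunit genes and for 48 of 50 large subunit genes, and only Rps27 and Rpl3 lie right of the dotted 1.5-fold line.

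Levels differed more among LLC than among Control mice. The share of all counts taken by the 83 genes was 0.932%, 0.963%, 1.00% and 0.879% in Control 1 to 4. In LLC 1 to 6 it was 1.68%, 1.12%, 1.08%, 0.979%, 1.62% and 1.17%. LLC 1 and LLC 5 stood well above the rest, and LLC 4 lay within the Control range.

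LLC 1 and LLC 5 were also highest in each subunit on the log scale. The mean deviation of the small subunit genes from their Control mean of log2 CPM was 0.60 in LLC 1 and 0.66 in LLC 5, between 0.18 and 0.20 in LLC 2, LLC 3 and LLC 6, and -0.02 in LLC 4. That of the large subunit genes was 0.53 and 0.62, between 0.15 and 0.17, and -0.02 in the same samples. In Control mice both lay between -0.12 and 0.08. Without the paralogs the means of the subunits differed by -0.005 to 0.021 in each of the 10 samples.

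**Figure D2:**
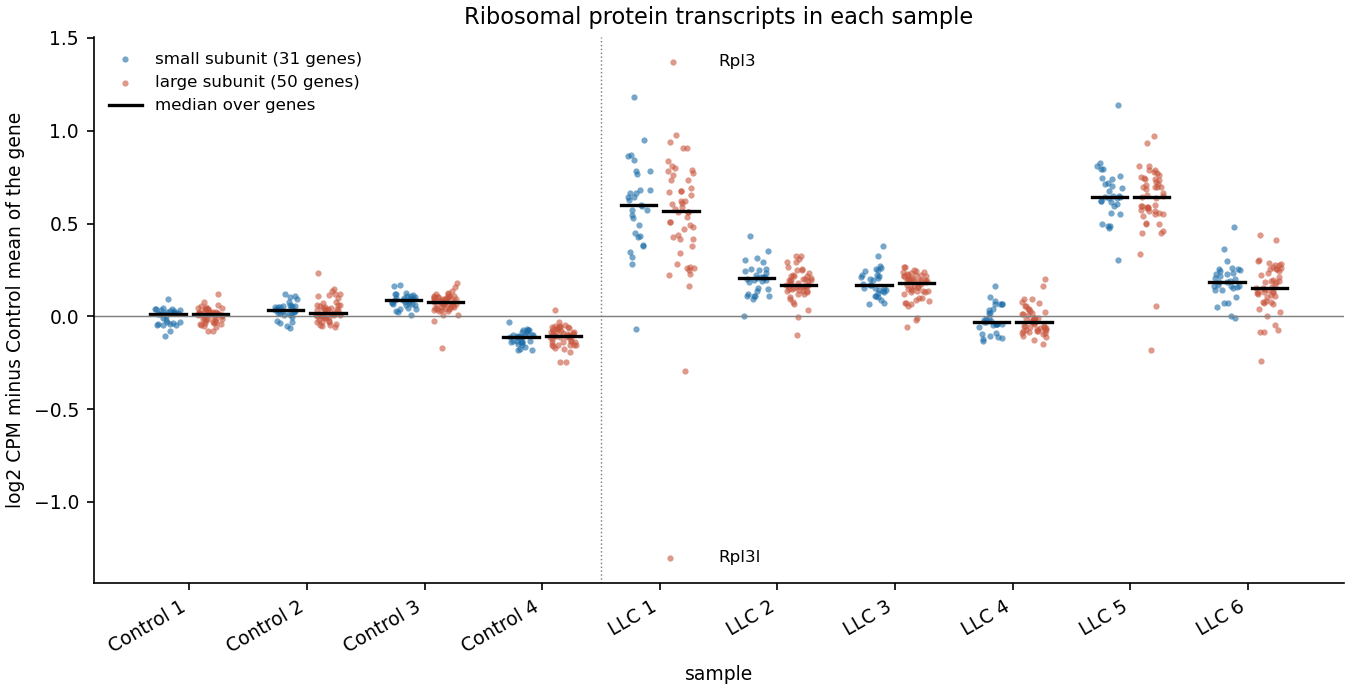
Log2 CPM of each tested gene minus its Control mean (y axis) in each of the 10 samples (x axis), with 1 point per gene, small subunit in blue and large subunit in red, and a bar at the median. LLC 1 and LLC 5 sit highest in both subunits, LLC 4 sits at the Control level, and Rpl3 and Rpl3l mark the extremes in LLC 1.

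The highest LLC value fell in LLC 1 for 26 genes and in LLC 5 for 54, together 80 of 81, against 49.7% of all genes, and the exception was Rpl3l. LLC 4 was the lowest LLC sample for 76 of the 81 (16.3% of all genes) and lay at or below the highest Control value for 73 (72.9% of all genes). At least 5 of the 6 LLC samples exceeded every Control sample for 62 genes (15% of all genes), whereas all 6 did so for 7 (3 small, 4 large), a share near the 6.4% of all genes. These were Rps9, Rps18, Rps27, Rpl4, Rpl5, Rpl12 and Rpl22, of which Rps9 is named after its values were seen. For all 81 the LLC samples had the larger SD of log2 CPM (85.1% of all genes), with medians of 0.27 in LLC and 0.09 in Control.

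Pearson's r of a gene with the mean of the other genes of its subunit over the 10 samples had a median of 0.98, and it was over 0.9 for 75 of 81. This is a description over 10 samples that share library, depth and scaling. The lowest values were -0.65 for Rpl3l and -0.26 for Rpl7l1, then 0.50 for Rps2 and 0.92 for Rps27l in the small subunit.

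The size of the shift depended on LLC 1 and LLC 5. Without both, the medians were 0.14 in the small and 0.11 in the large subunit, 76 of 81 genes were still higher (50.1% of all genes), and 26 were at 0.05 or less before adjustment and higher (13.5% of all genes). In that fit 7 genes had an adjusted p of 0.05 or less by edgeR, against 16.1% of all genes, and none was past the threshold with the fold limit (6.76% of all genes). Without LLC 1 alone the medians were 0.27 and 0.26, and 2 genes, Rps27 and Rpl22, had an adjusted p of 0.05 or less (14.2% of all genes). Without LLC 5 alone the medians were 0.25 and 0.23. Without LLC 4 alone they were 0.38 and 0.37, with 4 genes at an adjusted p of 0.05 or less (7.78% of all genes), of which Rps27 was past the threshold (6.38% of all genes). In LLC 1 and LLC 5 the share of mitochondrial counts was lowest, and in LLC 1 the muscle markers were lowest as well. The part of these differences in the higher ribosomal protein levels was not tested. In whole muscle, fewer cells of a type and less RNA per cell cannot be told apart.

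**Figure D3:**
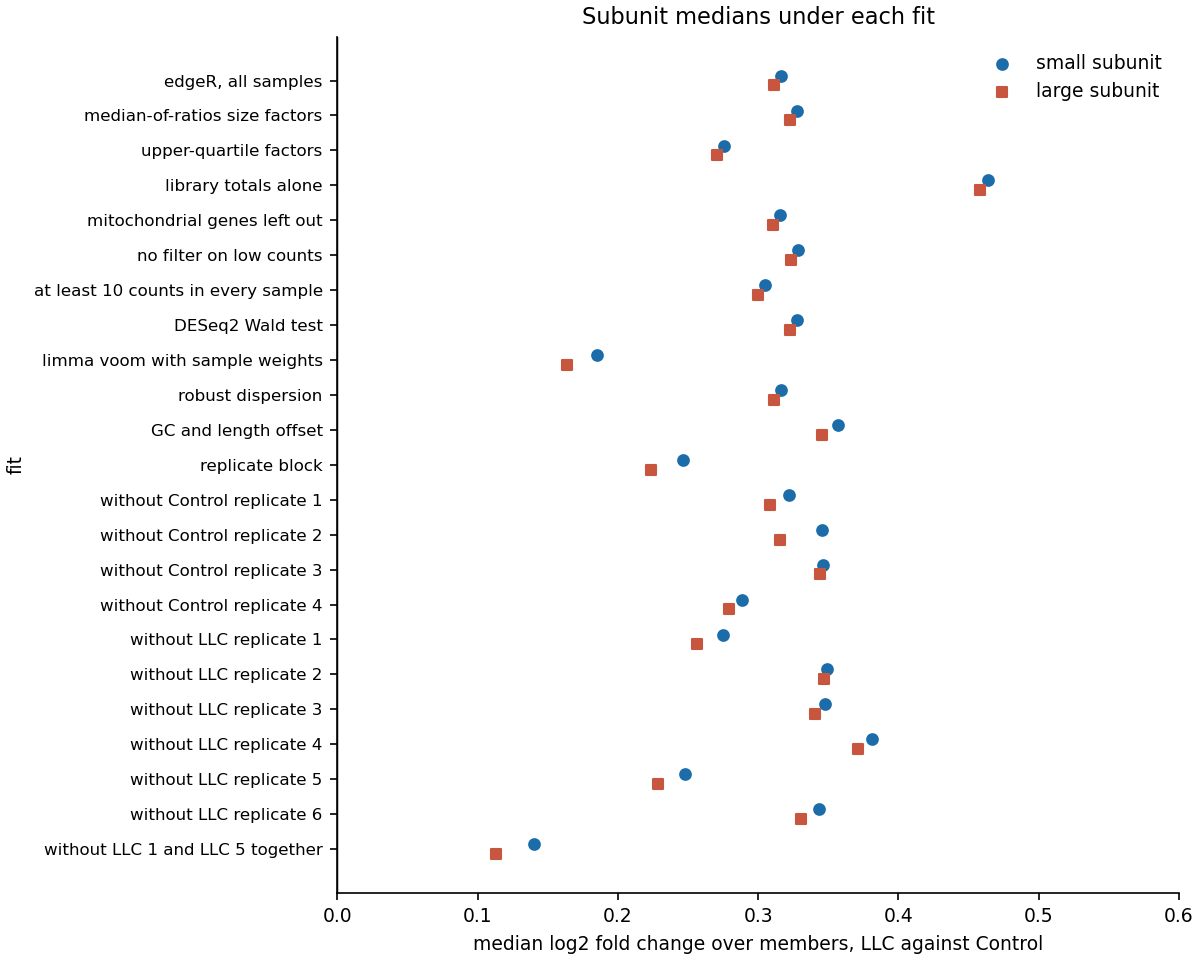
Median log2 fold change over the small (blue circles) and large subunit genes (red squares), on the x axis, under each fit on the y axis. Both medians are above 0 in every fit and lie close together, from 0.14 and 0.11 without LLC 1 and LLC 5 to 0.46 and 0.46 with library totals alone.

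Among the small subunit genes, Rps27, a zinc-binding protein of the subunit (chr3:90212522-90213651, minus strand, mm10), had the largest fold change. Its level was 45.7, 48.7, 52.3 and 41.2 CPM in Control 1 to 4, and in LLC it ran from 52.4 in LLC 4 through a median of 64.3 to 106 CPM in LLC 1. Every LLC value lay above every Control value, though LLC 4 was above Control 3 by a narrow margin. The log2 fold change was 0.68 ± 0.20 (SE), with an edgeR adjusted p of 0.0707 and a DESeq2 adjusted p of 0.0207. It was 0.36 without LLC 1 and LLC 5. Of the 100-base stretches of Rps27, 40.1% also occur in other annotated transcripts.

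Rps18 and Rps19, both of the head of the small subunit, came next by p. Rps18 was at 128, 129, 131 and 121 CPM in Control and at 133 to 231 CPM in LLC with a median of 163. The groups did not overlap, and LLC 4 was nearest to Control. Its log2 fold change was 0.48 ± 0.15 with an edgeR adjusted p of 0.0831. Rps19, which is mutated in Diamond-Blackfan anemia, was at 61.2, 70.9, 71.0 and 61.0 CPM in Control and at 70.6 to 115 CPM in LLC, median 82.1. LLC 4 fell within the Control range and the other 5 above it, with a log2 fold change of 0.46 ± 0.15 and an edgeR adjusted p of 0.0833. Rps23, which lies at the decoding centre, had a log2 fold change of 0.40 and an edgeR adjusted p of 0.109.

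Rps6, the substrate of S6 kinase downstream of mTOR, was at 90.1, 93.8, 97.2 and 86.9 CPM in Control and at 89.4 to 153 CPM in LLC with a median of 108. LLC 4 lay within Control and 5 of 6 LLC values above it, and the log2 fold change was 0.36 ± 0.15 with an edgeR adjusted p of 0.154. The most abundant small subunit transcripts per kilobase of exon in Control were Rps15 with 226 and Rps3a1 with 217 CPM per kilobase, and each had a log2 fold change of 0.31. The lowest fold change in the subunit was that of Rps2. Rps2 was at 280, 251, 263 and 257 CPM in Control and at 244 to 324 CPM in LLC, median 261. LLC 1, high for nearly all other genes, had 250 CPM and lay just below the Control range together with LLC 4, while LLC 5 lay above it. The log2 fold change was 0.04 ± 0.10 with an edgeR adjusted p of 0.832.

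In the large subunit, Rpl22, an RNA-binding protein of the large subunit (chr4:152325742-152334071, plus strand), had the smallest p. Its level was 76.8, 83.4, 75.9 and 72.9 CPM in Control and 88.6 to 131 CPM in LLC, median 94.8. All 6 LLC samples lay above all Control samples, LLC 4 lowest among them. Against Control the log2 fold change was 0.43 ± 0.13, with an edgeR adjusted p of 0.0669 and a DESeq2 adjusted p of 0.0229. It was 0.26 without LLC 1 and LLC 5.

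Rpl5 and Rpl11 form with 5S RNA the particle that also binds Mdm2 when ribosome assembly is disturbed. Rpl5 was at 159, 156, 158 and 138 CPM in Control and at 161 to 301 CPM in LLC with a median of 197, without overlap and again with LLC 4 nearest to Control. Its log2 fold change was 0.53 ± 0.18 with an edgeR adjusted p of 0.0975. Rpl11 was at 80.5, 78.0, 84.3 and 71.3 CPM in Control and at 81.4 to 134 CPM in LLC, median 93.9, with LLC 4 inside the Control range, and its log2 fold change was 0.41 ± 0.15 with an edgeR adjusted p of 0.109. Exons of Fam69a and Snord21 cover 26.7% of the Rpl5 exon length, and how reads in the shared part were assigned is not given.

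Rpl4 reaches into the tunnel through which the new chain leaves the ribosome, and it was among the most abundant transcripts. It was at 439, 431, 430 and 411 CPM in Control and at 456 to 736 CPM in LLC with a median of 511. The groups did not overlap, and the log2 fold change was 0.40 ± 0.14 with an edgeR adjusted p of 0.106. Across the 9 genes of the tunnel and its exit the median log2 fold change was 0.28, with 9 of 9 higher. Across the 13 genes of the small subunit head it was 0.32, with 13 of 13 higher.

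The P stalk recruits the elongation factors and is formed by Rplp0, Rplp1 and Rplp2 on a base with Rpl12. Its members differed from each other. Rpl12 and Rplp2 had log2 fold changes of 0.44 ± 0.17 and 0.39 ± 0.17, with edgeR adjusted p values of 0.137 and 0.173. Rplp1, at 488 CPM per kilobase the most abundant of all these transcripts in Control, had 0.18 ± 0.12, and Rplp0, next at 271 CPM per kilobase, had 0.11 ± 0.10. Rplp0 was at 455, 451, 460 and 432 CPM in Control and at 426 to 566 CPM in LLC, median 468. LLC 4 lay below and 4 LLC samples above the Control range, and its log2 fold change was -0.0049 without LLC 1 and LLC 5. The differences between stalk members were not tested.

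Rpl13a served as the reference gene of the RT-qPCR assays of the study. Its level was 151, 148, 166 and 146 CPM in Control and 151 to 261 CPM in LLC with a median of 183. LLC 4 fell within the Control range and the other 5 LLC samples above it. The log2 fold change was 0.38 ± 0.15 (1.30-fold) with an edgeR adjusted p of 0.132, and 0.18 without LLC 1 and LLC 5. Exons of Gm45713, Mir5121 and Snord33 cover 35.4% of the Rpl13a exon length. Over the 10 samples its r with the rest of the large subunit was 0.99.

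Rpl3l (chr17:24727820-24736143, plus strand) departed from the rest. It was at 429, 442, 465 and 418 CPM in Control 1 to 4 and at 178, 408, 435, 417, 386 and 370 CPM in LLC 1 to 6. LLC 1 had well under the level of any other sample, LLC 3 lay within the Control range, LLC 2 and LLC 4 lay just below it, and LLC 5 and LLC 6 lay further below. The log2 fold change was -0.26 ± 0.20 with an edgeR adjusted p of 0.404, and -0.11 without LLC 1. Its exons share no 100-base stretch with another annotated transcript.

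Rpl3, the general form (chr15:80077791-80091868, minus strand), was highest where Rpl3l was lowest, in LLC 1. It was at 23.7, 23.3, 27.1 and 23.2 CPM in Control 1 to 4 and at 63.1, 30.2, 24.0, 27.3, 47.7 and 32.4 CPM in LLC 1 to 6. The highest values were in LLC 1 and LLC 5, and LLC 3 lay within the Control range. The log2 fold change was 0.62 ± 0.25 with an edgeR adjusted p of 0.139, and 0.22 without LLC 1 and LLC 5. Of its 100-base stretches 59.9% also occur in other annotated transcripts, so that reads may have been lost to them in counting and its level may be understated.

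In Control muscle Rpl3l was the more abundant of the pair by far. It stood at 267 CPM per kilobase of exon against 7.67 for Rpl3, a ratio of 34.8, and at 18.9 times the Rpl3 level in LLC. The coding sequences are nearly equal in length, 1221 and 1209 bases with 73.2% identity, and per count the ratio was 17.9 in Control and 9.93 in LLC on the mean log scale. The log2 ratio of Rpl3l to Rpl3 was 4.17, 4.24, 4.09 and 4.16 in Control 1 to 4 and 1.49, 3.75, 4.17, 3.93, 3.01 and 3.51 in LLC 1 to 6. Thus 5 of 6 LLC samples lay below all Control samples, with LLC 1 and LLC 5 lowest. The mean difference was -0.85 with p = 0.0381 by an exact permutation test, two-sided, and 0.0762 after adjustment over the 6 pairs tested. In that design the smallest possible p is 0.00952.

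Rpl7l1, a relative of Rpl7 thought to act in making the large subunit, also stood apart. It was at 30.4, 30.9, 30.9 and 28 CPM in Control and at 24.4 to 31.2 CPM in LLC with a median of 28.8. LLC 1 lay below and LLC 5 just above the Control range, the other 4 LLC samples lay within it, and the log2 fold change was -0.06 ± 0.09. Rpl7 itself had a log2 fold change of 0.27 ± 0.14. The log2 ratio of Rpl7l1 to Rpl7 was lower in LLC by a mean of -0.32, below all Control samples in 5 of 6, with an exact permutation p of 0.0286 and 0.0762 after adjustment.

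Rps27l, a paralog of Rps27 known as a p53 target, was about as abundant as Rps27 in Control. It was at 44.3, 48.6, 45.3 and 40.7 CPM in Control and at 41.2 to 81.5 CPM in LLC, median 52.1, with LLC 4 inside the Control range. Its log2 fold change was 0.35 ± 0.16 with an edgeR adjusted p of 0.194, against 0.68 for Rps27. The log2 ratio of Rps27l to Rps27 was -0.04, -0.00, -0.21 and -0.02 in Control and ran from -0.71 in LLC 5 to -0.20 in LLC 3. In 5 of 6 LLC samples it was below all Control samples, LLC 3 being the exception, with a mean difference of -0.32, an exact permutation p of 0.019 and 0.0762 after adjustment. The longest annotated coding sequences have 315 bases in Rps27l and 252 in Rps27, and 192 of 315 aligned columns were identical. This gives 61.0% identity with gaps counted, a figure that the difference in length lowers. The pair shares no 100-base stretch.

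**Figure D4:**
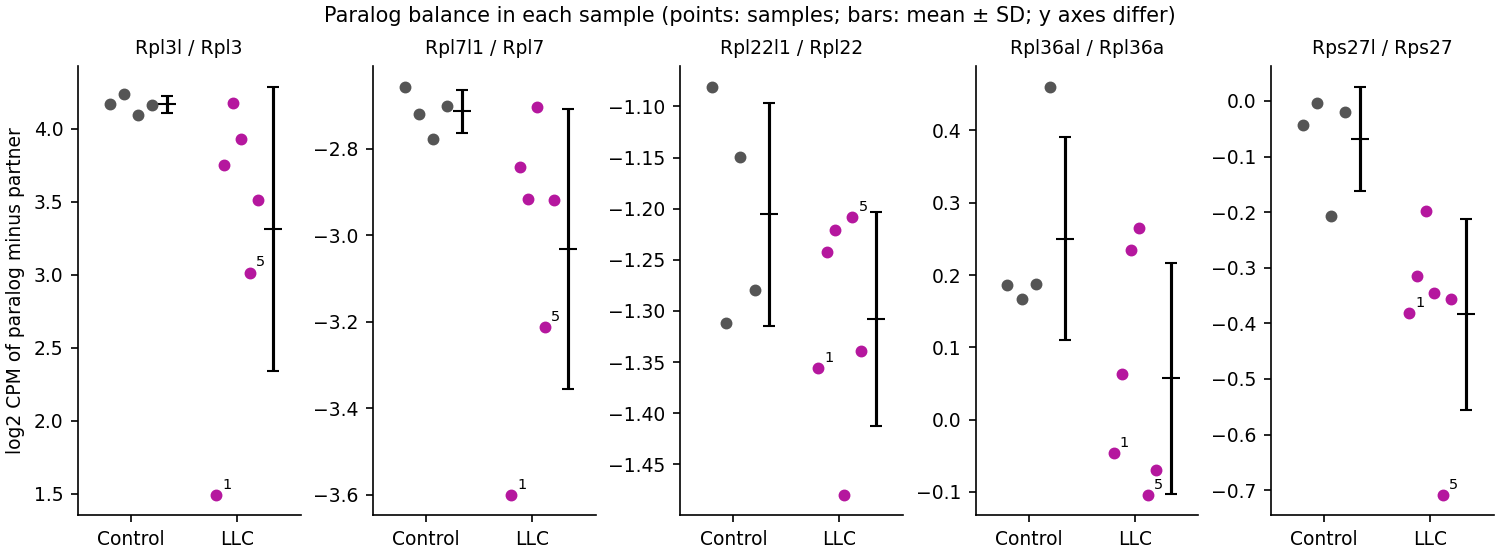
Log2 CPM of the paralog minus that of its partner (y axis, scales differ) for 5 pairs, with 1 point per sample, group mean ± SD beside the points, and LLC 1 and LLC 5 marked by their numbers. The Rpl3l to Rpl3 ratio is 1.49 in LLC 1 and 3.01 in LLC 5, whereas Control samples lie between 4.09 and 4.24.

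The other pairs showed less. Rpl22l1, a paralog of Rpl22 that can replace it in the ribosome, had a log2 fold change of 0.34 ± 0.15, and its ratio to Rpl22 differed by -0.10 (exact permutation p = 0.19 before and after adjustment). Rpl36al, a close relative of Rpl36a with 87.7% coding identity, had 0.18 ± 0.12 against 0.39 ± 0.16 for Rpl36a, and their ratio differed by -0.19 (exact permutation p = 0.105, adjusted 0.157). Rpl39l, best known from testis, was at or under the detection limit in 9 of 10 samples, and its pair with Rpl39 gave an exact permutation p of 0.171 and 0.19 adjusted on a few counts. Rpl10l, also best known from testis, had 0 counts in every sample and its pair with Rpl10 was not tested. In all 6 tested pairs the mean ratio was lower in LLC, and none passed an adjusted p of 0.05. The pair of Rpl39l adds little to this shared direction, since Rpl39l had 11 counts in all 10 samples together.

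Sequence and annotation features were compared with the fold changes across genes as descriptions, since the genes are not independent. Among the genes with a RefSeq start, the median log2 fold change was 0.33 for 33 with a pyrimidine run and 0.29 for 29 without one. Across the 76 genes without the paralogs, Spearman's rho of the log2 fold change was -0.25 with the Control level per kilobase and 0.28 with the exon length, measures that share the length. For 20 genes with under 10% of their 100-base stretches shared with other transcripts the median was 0.31, and for 19 with over 50% shared it was 0.34. Among genes described above the share was 83.6% for Rps6, 82.7% for Rpl5, 47.3% for Rps18 and 43.8% for Rps2, and it was 0% for Rpl22, Rpl3l and Rps27l. For the 43 genes whose exons overlap no other annotated exon it was 0.31, and for the 38 with an overlap it was 0.34.

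Other genes of ribosome production were read from lists. Rack1 and Fau, which encode proteins of the small subunit but fall outside the symbol rule, had log2 fold changes of 0.37 ± 0.14 and 0.33 ± 0.13, with edgeR adjusted p values of 0.115 and 0.138. A list of 15 other genes held TOP transcripts, mostly of translation factors, and Larp1, listed as the protein that binds the tract. All 15 were higher, from 0.01 to 0.55 with a median of 0.32. Without LLC 1 and LLC 5 the median was 0.13, with 14 of 15 higher. Eef2, the translocation factor, had 0.42 ± 0.14 and Eif3f had 0.48 ± 0.17. Of 44 ribosome assembly factors 42 were higher, with a median of 0.34, and in 13 every LLC sample exceeded every Control sample, against the 6.4% of all genes. The median of the assembly factors was 0.23 without LLC 1 and 0.14 without LLC 1 and LLC 5, with 39 of 44 higher without both. The smallest p values were those of Nop58, of the box C/D snoRNA particle, with 0.65 ± 0.20, and Heatr1, of the early small subunit precursor, with 0.65 ± 0.21. None of these genes passed the edgeR threshold. DESeq2's Wald test placed 2 of the 44 assembly factors past it, Nop58 and Heatr1, with adjusted p values of 0.0274 and 0.0332 (8.31% of all genes passed).

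Of 17 RNA polymerase I genes and regulators 15 were higher, with a median of 0.19, which was 0.095 without LLC 1 and 0.055 without LLC 1 and LLC 5. Myc, which drives ribosome production, was at 1.96, 2.91, 2.33 and 2.96 CPM in Control and at 15.3, 3.05, 3.36, 2.82, 11 and 5.87 CPM in LLC 1 to 6. Its highest values fell in LLC 1 and LLC 5, and LLC 4 lay within Control. For 49.7% of all genes the highest LLC value fell in LLC 1 or LLC 5. The part of Myc in the ribosomal protein levels was not tested. For Myc the log2 fold change was 1.44 ± 0.50 with an edgeR adjusted p of 0.0999. Rrn3, which brings the polymerase to the rDNA promoter, had 0.18 ± 0.07 and an edgeR adjusted p of 0.132. No gene of the list passed the edgeR threshold. DESeq2's Wald test placed 1 of the 17 past it, Myc, with an adjusted p of 0.0215 (8.31% of all genes passed).

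Transcripts for proteins of the mitochondrial ribosome were mostly lower. Of 76 tested 54 were lower in LLC, with a median log2 fold change of -0.12. This median was -0.078 without LLC 1 and 0.01 with library totals alone as scaling, under which the median over all genes was 0.14. In 11 every LLC sample was below every Control sample, against 9.57% of all genes. Mrpl12, with 88.7, 82.9, 91.9 and 81.0 CPM in Control and 36.4 to 69.2 CPM in LLC, had a log2 fold change of -0.56 ± 0.16 and an edgeR adjusted p of 0.0515. Mrpl3 had -0.31 ± 0.10. None passed the edgeR threshold.

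**Figure D5:**
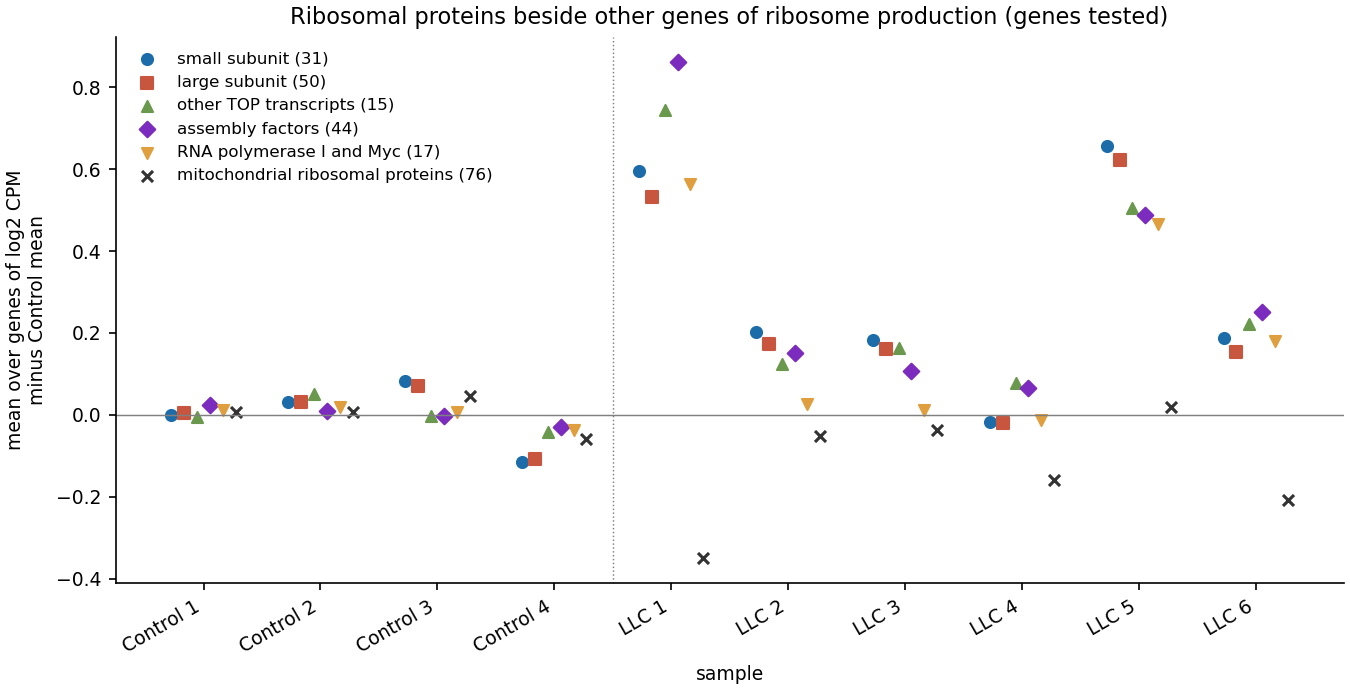
Mean over genes of log2 CPM minus the Control mean (y axis) in each sample (x axis) for the small and large subunit genes, the other TOP transcripts with Larp1, the assembly factors, the RNA polymerase I list and the mitochondrial ribosomal proteins. The 5 cytosolic lists are highest in LLC 1 and LLC 5, whereas the mitochondrial list is lowest in LLC 1.

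Of 239 named pseudogenes of ribosomal proteins, 25 passed the filter on low counts, 22 without LLC 1 and 21 without LLC 1 and LLC 5, so that some passed through the libraries where they were high, and no fold change is given for the list. Pseudogene counts came to 0.447% to 0.591% of those of the ribosomal protein genes, with no separation of LLC 1 and LLC 5 from the other samples. Reads of a parent gene and of its copies are near identical and may have been placed on either.

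Markers of other cells differed between the groups. All 6 neutrophil markers that could be tested passed the edgeR threshold and were higher, where 5.63% of all genes passed in either direction. They were so low in Control that they passed the filter on low counts mainly through LLC, which largely set this count in advance. The 10 markers summed to 0.794 to 2.42 CPM in Control and 32.6 to 69.9 CPM in LLC, highest in LLC 5 and LLC 4. The precursor marker Elane was at 0 in every sample. Of the erythroid markers 3 of 5 passed and were higher, with sums of 58.8 to 83.4 and 88.9 to 145 CPM. All 4 fibroblast markers passed and were lower, with sums of 157 to 193 and 40.3 to 60.8 CPM. Of 5 macrophage markers tested 1 passed and was lower, with sums of 21.5 to 30.9 and 19.5 to 32.8 CPM, and of 4 endothelial markers 1 passed and was lower, with sums of 204 to 273 and 197 to 234 CPM. The lymphocyte markers, of which none passed the filter, summed to 0.438 to 0.839 and 0.360 to 0.892 CPM. LLC 4, next to LLC 5 in neutrophil markers, had ribosomal protein levels within Control. The part of these cells in the ribosomal protein levels was not tested.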

How the data were processed

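Total RNA of tibialis anterior was sequenced from 4 Control and 6 LLC mice with stranded libraries, read from both ends. By the study's methods the authors mapped reads to mm10 with TopHat2 and counted them for RefSeq genes with HTSeq at default settings. The files list Ensembl identifiers, so their annotation release and strand setting are not given in the sources used here. The deposited values are raw read counts per gene, 1 library per mouse, with no normalization. Per-sample totals were 16693209 to 21303084 counts, and the detection limit of 3 counts covers counting error only.

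Of 39179 identifiers, 37693 were found in GENCODE M21 (GRCm38), which gave symbols, gene types, exon lengths and coordinates. Exon length is the union over all annotated isoforms, so a level per kilobase is lowered for genes with long rare isoforms. edgeR 4.0.16 (R 4.3.3) kept 12690 genes (filterByExpr, count minimum of 10), scaled by TMM and tested LLC against Control by the quasi-likelihood test, with Benjamini-Hochberg adjustment over all genes tested. The SE printed with an edgeR log2 fold change is the absolute log2 fold change divided by the square root of the test's F statistic. The authors used DESeq2, run here (1.42.0) as an alternative beside limma 3.58.1. CPM values are TMM-scaled, with a prior count of 2 for log2 CPM. Paralog ratios were compared by the exact permutation test over all 210 assignments of the samples to groups. Shared stretches were exact 100-base matches on either strand to annotated transcripts of other genes. Sequences came from RefSeq (GRCm38.p6). The fit was tested on simulated data.

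The genes, lists and alternatives were chosen with earlier results of these data known. Genes described one at a time were the paralog pairs, in each subunit the 4 with the smallest p, the 2 most abundant per kilobase and the 2 with the lowest correlation with their subunit, all with a log2 fold change below 0, the P stalk and 5S particle, Rps6 and Rpl13a. From other lists the 2 with the smallest p were taken. Alternatives covered scaling, filters, test, GC content and length, a replicate block and leaving out libraries. No pair of libraries agreed within sampling noise, so each was 1 replicate. The labels give no batch.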

Additional observations from a re-analysis of the deposited data

Results flagged for a closer look

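In 4 of 72 groups of values examined, the sample at one end stood apart from the rest by Dixon's criterion at the 95% level, against 3.6 such groups that chance gives at 1 in 20. Rpl3l was at 178 CPM in LLC 1 and at 370 to 435 CPM in the other LLC samples. The log2 ratio of Rps27l to Rps27 was -0.71 in LLC 5 and -0.38 to -0.20 in the other LLC samples. Rpl3 was at 27.1 CPM in Control 3 and at 23.2 to 23.7 CPM in the other Control samples. The log2 ratio of Rpl36al to Rpl36a was 0.46 in Control 4 and 0.17 to 0.19 in the other Control samples.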

How the results depend on the processing

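The median log2 fold change stayed above 0 in both subunits under every alternative, from 0.14 to 0.46 in the small and from 0.11 to 0.46 in the large subunit, and from 0.25 to 0.38 and from 0.23 to 0.37 when 1 library was left out. With library totals alone as scaling the median over all genes shifted to 0.14, and the medians of 0.46 are read against it. With limma voom and sample weights the medians were 0.19 and 0.16, and 8 genes had an adjusted p of 0.05 or less (18% of all genes). The difference of the subunit medians, -0.005, was -0.027 without LLC 1 and LLC 5 and ran from -0.030 (without Control 2) to -0.0016 when 1 library was left out. The count of genes with an unadjusted p of 0.05 or less and higher in LLC was 43 (12.7% of all genes). It became 72 with library totals alone and 26 without LLC 1 and LLC 5 (13.5% of all genes). When 1 library was left out it ran from 7 (without Control 4) to 66 (without LLC 4). It was 17 without Control 1, without Control 2 and without LLC 5, so Control libraries moved it as much as LLC libraries did. Over all genes the count was 1898 of 12617 without LLC 4 and 1327 of 12608 without LLC 5. With library totals alone or without a Control library no share over all genes is given, so those counts have no background. Genes past the threshold numbered 1 with DESeq2 (8.31% of all genes), and 0 to 1 when 1 library was left out (Rps27 without LLC 4, 6.38% of all genes). By unadjusted p with the 1.5-fold limit, a looser rule, there were 2 (Rps27 and Rpl3). The share of all genes under that rule is not given here.

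Control and LLC mice share the numbers 1 to 4, which belong to different animals. Deviations of same-numbered samples correlated at -0.08 to 0.13, and 1 of 4 Control samples correlated best with its own number. These values gave no sign that the numbers pair the samples, though 4 numbers are too few to exclude it. The replicate block, which leaves LLC 5 and LLC 6 out, gave medians of 0.25 and 0.22. It reduced the count at an unadjusted p of 0.05 or less to 8, for which no share over all genes is given.

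Rps2 changed sign with the replicate block (-0.027), without LLC 5 (from -0.024 to 0.066 over the libraries left out) and without LLC 1 and LLC 5 (-0.018), Rplp0 (-0.0049) and Rpl23a (-0.0098) without LLC 1 and LLC 5, and Rpl7l1 with library totals alone (0.069). None of these passed the test in any fit. When 1 library was left out, the log2 ratio of Rpl3l to Rpl3 differed by -1.03 to -0.49 and that of Rps27l to Rps27 by -0.36 to -0.25, with adjusted exact permutation p values of 0.0476 to 0.167 and 0.0476 to 0.143, the lowest without LLC 3 in both. The cause of these changes was not tested.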
